A study of Mus musculus with 5 samples.

Results

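The cell-fate regulators described here are 10 mouse genes, Prdm1, Irf4, Xbp1, Bcl6, Spib, Pax5, Id3, Myc, Pou2af1 and Ebf1, which encode transcription factors or cofactors of the switch from B cell to plasma cell. They were followed through every probe set annotated to one of these symbols alone, which gave 13 of 12488 probe sets and 10 of 8251 genes on an Affymetrix mouse expression array. Spib, Pax5 and Pou2af1 had a pair of probe sets each and the other genes 1. Polyadenylated RNA was measured on 5 arrays, 1 for each cell culture. Of these, 4 came from the mouse plasma cell line AxJ after stable transfection, 1 carrying the empty vector, 1 overexpressing the RNA-binding protein hnRNP-H and 2, the clones B5 and D6, overexpressing the related protein hnRNP-F. The other culture was A20, a mouse line that the labels call memory B cells, for which the labels name no transfection and which was grown without the selection drug G418 that all 4 AxJ cultures received. The submitters picked clones that overexpressed hnRNP-F or hnRNP-H strongly on western blots, and the drug, the transfection and the line cannot be told apart in any comparison with A20.

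In a B cell, Pax5 and Ebf1 hold the B cell programme in place, Bcl6 acts in germinal centre cells, and Spib and Pou2af1 (which encodes the octamer cofactor OBF-1) serve B cell receptor and antibody genes. Differentiation to a plasma cell is driven by Irf4 and by Prdm1, which encodes the repressor Blimp-1, and Xbp1 expands the secretory apparatus. Blimp-1 is known to repress Pax5, Bcl6, Spib, Id3 and Myc, while Bcl6 and Pax5 are known to repress Prdm1 and Xbp1 respectively, so the sides of the switch oppose each other.

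The promoters of Pax5, Ebf1, Bcl6 and Spib, the genes of the B cell side that were higher in A20 below, are shown. Sequences are from RefSeq on build GRCm38.p6 and run 5′ to 3′ on the strand of the gene, from 250 bases before to 50 after the annotated start. Capitals mark every match to the motifs listed after them. For Ebf1 and Bcl6 one of the pair of annotated starts is shown.
Pax5, chr4:44710645-44710944, minus strand: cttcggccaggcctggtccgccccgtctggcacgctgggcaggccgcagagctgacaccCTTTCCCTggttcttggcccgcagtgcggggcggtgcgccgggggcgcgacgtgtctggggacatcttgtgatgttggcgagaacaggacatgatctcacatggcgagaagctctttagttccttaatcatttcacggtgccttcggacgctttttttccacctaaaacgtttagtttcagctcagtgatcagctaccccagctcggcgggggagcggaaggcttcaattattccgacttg
Ebf1, chr11:44619978-44620277, plus strand: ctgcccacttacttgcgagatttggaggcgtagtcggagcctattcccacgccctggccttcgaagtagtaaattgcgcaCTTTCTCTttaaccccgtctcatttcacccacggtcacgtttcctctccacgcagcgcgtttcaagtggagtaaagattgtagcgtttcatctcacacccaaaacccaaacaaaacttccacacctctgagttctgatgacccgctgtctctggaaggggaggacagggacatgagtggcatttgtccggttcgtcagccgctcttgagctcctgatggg
Bcl6, chr16:23981234-23981533, minus strand: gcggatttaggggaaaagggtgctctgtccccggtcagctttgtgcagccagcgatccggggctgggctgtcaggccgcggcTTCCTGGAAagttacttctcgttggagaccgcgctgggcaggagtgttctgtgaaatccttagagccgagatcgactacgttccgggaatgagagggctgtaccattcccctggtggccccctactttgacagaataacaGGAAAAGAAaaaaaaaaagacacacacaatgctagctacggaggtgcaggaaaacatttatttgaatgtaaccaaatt
Spib, chr7:44532022-44532321, minus strand: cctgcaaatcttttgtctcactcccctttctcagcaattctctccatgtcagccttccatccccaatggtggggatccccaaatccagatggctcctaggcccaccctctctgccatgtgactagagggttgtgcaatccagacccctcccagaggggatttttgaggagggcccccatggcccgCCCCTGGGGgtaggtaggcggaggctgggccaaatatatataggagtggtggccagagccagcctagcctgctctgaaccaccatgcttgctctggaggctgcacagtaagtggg

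Promoters were found for 9 of the 10 genes, with 11 annotated starts, and 10 motifs were searched on both strands. The gene without a promoter sequence was Myc, so no motif was searched there. The Blimp-1-type motif AGNGAAAG was present at Pax5 and at the Ebf1 start shown, as CTTTCCCT and CTTTCTCT, and in 8.63% of all 32851 promoters of the same length. It had no match at Bcl6, Spib or Id3, which Blimp-1 is also known to repress. The Bcl6-type motif TTCCTNGAA occurred at Bcl6 itself, as TTCCTGGAA, and in 1.59% of all promoters. The composite motif GGAANNGAA of ETS and IRF factors occurred at Bcl6 as well, with a background of 8.24%. The Ebf1 core CCCNNGGG, which matches itself on the opposite strand, occurred at Spib in 2 overlapping matches and in 13.7% of promoters. Outside the sequences shown, the Xbp1 core TGACGTG lay in the Pou2af1 promoter (background 2.01%), the E protein motif CAGGTG in those of Prdm1 and Xbp1 (20.2%), the NF-kB motif GGANTTTCC at the other Ebf1 start (1.25%) and the Myc motif CACGTG at the other Bcl6 start (7.15%). The octamer ATGCAAAT and the CRE motif TGACGTCA had no match in these windows, with 1.74% and 1.79% of all promoters holding one. A match describes letters and not binding.

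Before the results, the arrays were compared. The ratio of the 5′ to the 3′ Gapdh control probe set, which reflects how intact the labelled RNA was, stood at 0.212 for empty vector and 0.181 for clone B5, against 0.866 for hnRNP-H, 0.683 for clone D6 and 0.384 for A20. Of the B cell markers, 7 of the 9 measured passed the filter on low values, and 4 of these were higher in A20. They were Ms4a1, Cd22, H2-Aa and H2-Ab1. Cd22 and H2-Aa passed the filter through A20 alone, and the H2-Ab1 call was lost without empty vector or without hnRNP-H. Over all probe sets tested, 2.89% were higher in A20 and 3.0% lower. Cd79b and Cd74 were bright in AxJ too, at 432 to 757 and 1335 to 3002. Of 6 plasma cell markers, 4 were lower in A20, namely Igha, Fkbp11, Jchain and Ell2. The calls of Jchain and Ell2 were lost without B5 or without D6, and that of Ell2 also without empty vector. Sdc1, which encodes the plasma cell surface marker CD138, was dim in the AxJ arrays (20.1 to 45.0) and in A20 (30.5), and its difference of -0.36 did not pass the test, and a second, dimmer Sdc1 probe set, at -1.96, did not pass either. No marker of T cells (1 tested), myeloid cells (7), stromal cells (5) or erythroid cells (2) passed, and their summed levels in A20 were 33.9, 255, 347 and 122, against 33.7 to 66.1, 280 to 524, 486 to 604 and 77.1 to 133 in AxJ. The part of these values in the results below was not tested.

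Levels in what follows are quantile-normalised intensities on a linear scale, which may be compared between arrays for a probe set but not between probe sets. All differences refer to log2(intensity + 6.55), a scale that understates the change of dim probe sets, and were tested with limma over all 5 arrays, with empty vector and hnRNP-H together as the AxJ controls. The threshold was a Benjamini-Hochberg adjusted p of 0.05, two-sided, over 9108 probe sets whose highest value exceeded 21.8. No source states that cultures were repeated, so the p-values cover the spread among these arrays alone. That spread lies between empty vector and hnRNP-H and between B5 and D6. It may hold technical differences and differences between these transfected cultures. The lone A20 array borrows its spread from AxJ. Of the 13 probe sets, 12 passed the filter, with at least 1 for each gene, and 4 of them (Bcl6, Ebf1, and one each of Spib and Pou2af1) passed through the A20 array alone. For those 4, a difference was built into the filter. Where one side of a comparison lay under the filter, its ratio is given as a lower bound with 21.8 in place of the dim values, and the log2 difference depends in part on the pseudocount.

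**Figure D1:**
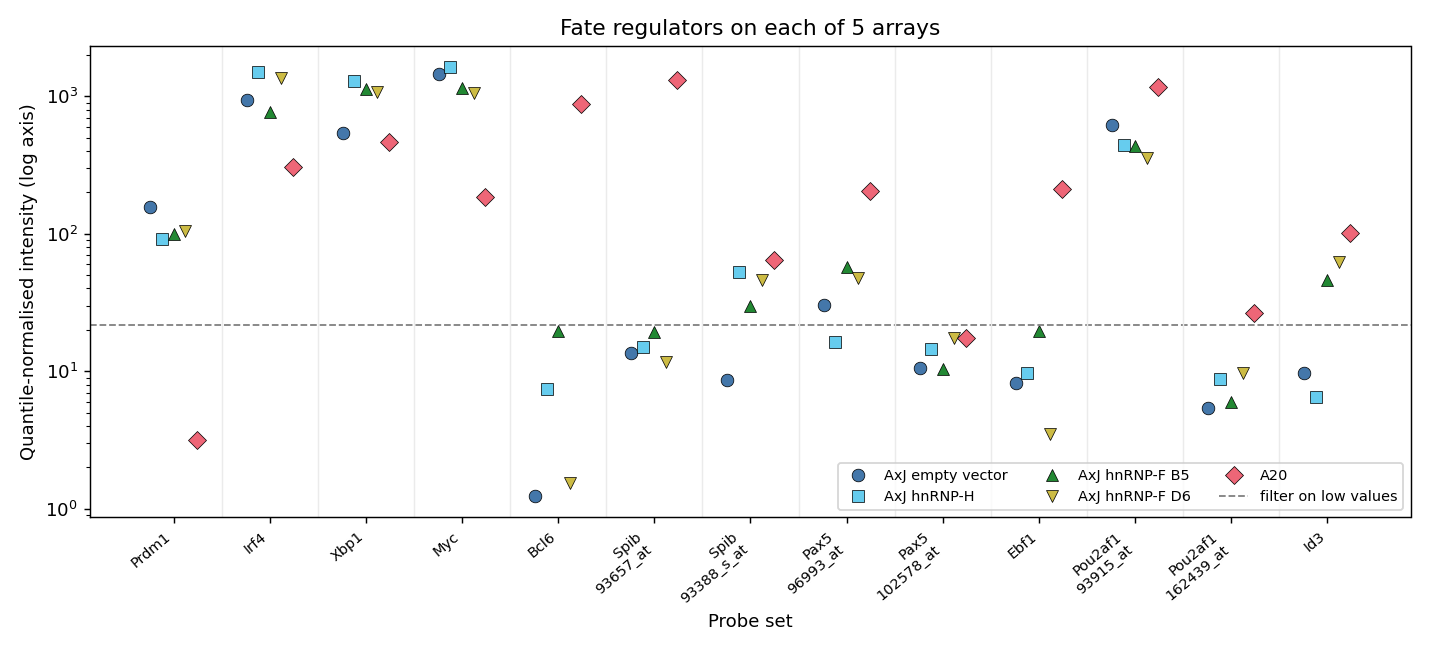
Quantile-normalised intensity (vertical log axis) of the 13 probe sets on each array, with 1 symbol per array and the filter on low values as a dashed line at 21.8. A20 lies below all AxJ arrays for Prdm1, Irf4, Xbp1 and Myc and above them for the other probe sets, by a wide margin for Bcl6 and for Spib 93657_at and by almost nothing for Pax5 102578_at.

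The first comparison set A20 against the AxJ controls, that is, a B cell line against a plasma cell line. The plasma cell regulators Prdm1 and Irf4 and the growth regulator Myc fell in A20, and the B cell regulators Bcl6, Spib, Pax5 and Ebf1 rose together with Id3. Counted over probe sets, 5 rose and 3 fell among the 12 tested, against 2.89% and 3.0% of all probe sets tested. Of those that rose, Bcl6, Ebf1 and Spib 93657_at were tested through A20 alone, so their direction was built into the filter. The genes were known for this switch and chosen with earlier results in view, so these counts are a description. A20 lay above all 4 AxJ arrays for 8 of the 12 and below all of them for 4, and the same held for 26.0% and 28.9% of all probe sets. The 8 above include the 4 probe sets that passed the filter through A20 alone. In cell lines measured in bulk, fewer cells of a type and less RNA per cell cannot be told apart.

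Prdm1 (92904_at), the gene of Blimp-1, read 157 with empty vector, 92.2 with hnRNP-H, 99.0 and 105 in the clones B5 and D6, and 3.16 in A20. All AxJ arrays were high and A20 lay under the filter, without overlap, so the lowest AxJ value was at least 4.23-fold higher than A20. Prdm1 fell by 3.71 on the log2 scale in A20 (SE 0.47, limma adjusted p = 0.00358), and the call held in each of 15 alternatives.

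Irf4 (92737_at), a factor needed for plasma cell differentiation, read 941 with empty vector, 1499 with hnRNP-H, 773 and 1353 in the clones B5 and D6, and 305 in A20. A20 was again below every AxJ array, but by a smaller margin, and Irf4 remained well above the filter there. The difference was -1.94 (SE 0.42, limma adjusted p = 0.0336). Within AxJ the higher pair, hnRNP-H and D6, was the pair of higher Gapdh ratio, and the part of that in the result was not tested. The Irf4 call was lost when any 1 AxJ array was left out, with adjusted p of 0.0539 without empty vector, 0.0894 without hnRNP-H, 0.0609 without B5 and 0.0585 without D6.

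Xbp1 (94821_at), which drives genes of protein folding and secretion, read 539 with empty vector, 1302 with hnRNP-H, 1129 and 1070 in the clones B5 and D6, and 465 in A20. Empty vector stood near A20 and apart from the other 3 AxJ arrays. Its difference of -0.84 (SE 0.47, 95% interval -1.92 to 0.24) did not pass (limma adjusted p = 0.393). Without empty vector the difference was -1.47 and passed (adjusted p = 0.0485), and without hnRNP-H it was -0.21 (adjusted p = 0.682), so the value rests on which control is used. Against hnRNP-H and D6 alone, the AxJ pair of higher Gapdh ratio, the difference was -1.33 and also passed. Against empty vector and B5 alone it was -0.74 and did not pass. The part of the Gapdh ratio in this was not tested. Splicing of Xbp1 mRNA, which yields the active factor, was not examined here.

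Myc (104712_at), a growth regulator known in mouse plasmacytomas for translocations into immunoglobulin loci, read 1466 with empty vector, 1626 with hnRNP-H, 1149 and 1061 in the clones B5 and D6, and 186 in A20. The AxJ arrays lay close together, and the lowest of them was 5.70 times the A20 value. Myc fell by 3.01 in A20 (SE 0.29, limma adjusted p = 0.00101), and the call held in each of 15 alternatives. Its direction was thus opposite to that of Bcl6, Spib, Pax5 and Id3, the other genes here that Blimp-1 is known to repress.

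Bcl6 (103015_at), a repressor that acts in germinal centre cells, read 1.25 with empty vector, 7.39 with hnRNP-H, 19.7 and 1.54 in the clones B5 and D6, and 881 in A20. Every AxJ value lay under the filter and A20 was at least 40.4-fold higher. Bcl6 rose by 6.41 (SE 0.81, limma adjusted p = 0.00358), a size that ranged from 5.12 to 7.32 over 15 alternatives.

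Spib, an ETS family factor of B cells, read 13.5 with empty vector, 15.1 with hnRNP-H, 19.2 and 11.7 in the clones B5 and D6, and 1318 in A20 by the probe set 93657_at. Every AxJ value again lay under the filter, A20 was at least 60.4-fold higher, and the difference was 5.99 (SE 0.50, limma adjusted p = 0.000518). The second Spib probe set, 93388_s_at, whose suffix marks probes shared by several transcripts, read 8.61, 52.5, 29.7 and 46.4 in the same order of AxJ arrays and 64.6 in A20. There A20 exceeded the highest AxJ array by 1.23 times only, and the difference of 1.25 (SE 0.79) did not pass (adjusted p = 0.457). The Spib result therefore rests on 1 of its 2 probe sets.

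Pax5, the factor that maintains B cell identity, read 30.5 with empty vector, 16.3 with hnRNP-H, 57.2 and 47.9 in the clones B5 and D6, and 204 in A20 by the probe set 96993_at. A20 was highest, at 3.57 times B5, and the difference from the controls was 2.86 (SE 0.50, limma adjusted p = 0.0150). The call held without any 1 AxJ array, but not against empty vector and B5 alone (adjusted p = 0.109). The second Pax5 probe set, 102578_at, was dim on every array, from 10.4 to 17.6, and was not tested. As deposited it read 14.0 in A20, within the AxJ range of 11.9 to 17.5, so the pair of Pax5 probe sets did not show the same pattern.

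Ebf1 (92535_at), which acts with Pax5 early in the B lineage, read 8.17 with empty vector, 9.64 with hnRNP-H, 19.7 and 3.50 in the clones B5 and D6, and 210 in A20. The AxJ values all lay under the filter and A20 was at least 9.64-fold higher. The rise of 3.81 (SE 0.74, limma adjusted p = 0.0224) was no longer past the threshold without empty vector or without hnRNP-H. The call was also lost without the filter on low values, with that filter at the 60th percentile and without the intensity trend.

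Pou2af1, the octamer cofactor, read 619 with empty vector, 444 with hnRNP-H, 435 and 357 in the clones B5 and D6, and 1177 in A20 by its bright probe set, 93915_at. It was thus bright in both lines, with A20 at 1.90 times the highest AxJ array. The difference of 1.16 (SE 0.34, 95% interval 0.38 to 1.94) did not pass (limma adjusted p = 0.0952), although it did against all 4 AxJ arrays as 1 group (1.36, adjusted p = 0.0467). The dim second probe set, 162439_at, read 5.39 to 9.76 in AxJ and 26.4 in A20, and its difference of 1.29 did not pass either (adjusted p = 0.451).

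Id3 (92614_at), an inhibitor of E proteins, read 9.77 with empty vector, 6.44 with hnRNP-H, 46.1 and 62.8 in the clones B5 and D6, and 102 in A20. The values formed an order of controls, clones and A20, and A20 was 1.62 times clone D6. Against the controls Id3 rose by 2.89 in A20 (SE 0.54, limma adjusted p = 0.0198). Leaving out B5 (adjusted p = 0.0600) or D6 (0.0585) ended the call, as did a fit against all 4 AxJ arrays as 1 group, where the difference was 1.87 (adjusted p = 0.283). The difference between A20 and the clones alone was not tested.

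**Figure D2:**
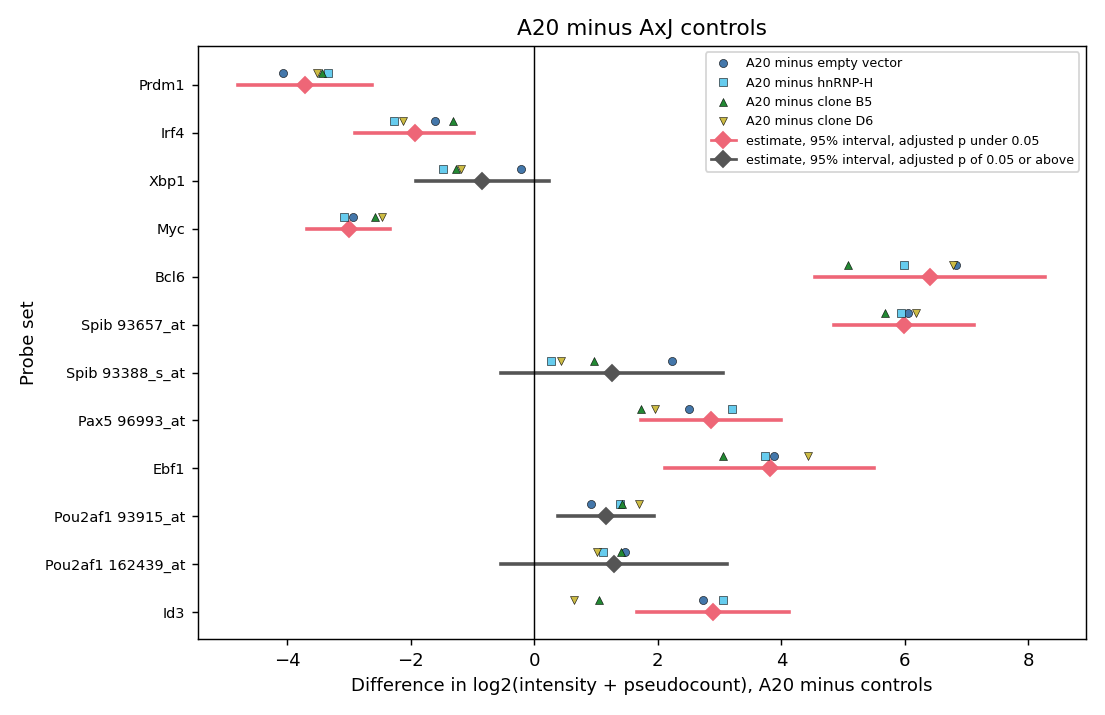
Difference in log2(intensity + 6.55) between A20 and the AxJ controls for the 12 probe sets tested (diamonds, with bars for the 95% interval of the limma fit), and the differences of A20 from each AxJ array (small symbols). The intervals of Xbp1, Spib 93388_s_at and Pou2af1 162439_at include 0, and all 4 array differences have one sign for each probe set.

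The second comparison asked whether the regulators differ when hnRNP-F is overexpressed, and set the clones B5 and D6 against the controls. No probe set of the 12 passed the limma threshold, where 1 of 9108 (0.0110%) did. Of the 12, 2 had an unadjusted p under 0.05, as had 526 of all 9108. Both clones lay above both controls for 2 of the 12 (Pax5 and Id3) and below them for 2 (Myc and Pou2af1), against 18.2% and 19.3% of all probe sets. The clone and A20 comparisons share the controls, so their values are given side by side only.

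Id3 lay under the filter in both controls and above it in both clones, with the lower clone at least 2.11-fold higher. Its difference of 2.05 (SE 0.44, 95% interval 1.04 to 3.06) had an unadjusted p of 0.00142 and a limma adjusted p of 0.788. With the AxJ pairs of like Gapdh ratio as a block, its SE was 0.53 and its adjusted p 0.675. Its difference in A20 was 2.89. Pax5 96993_at differed by 1.02 (SE 0.41, adjusted p = 0.788), with the lower clone at 1.57 times the higher control, and its A20 difference was 2.86.

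Myc lay lower in both clones, with the lower control at 1.28 times the higher clone, and a difference of -0.48 (SE 0.24, limma adjusted p = 0.788). Pou2af1 93915_at differed by -0.41 (SE 0.28, adjusted p = 0.799), where hnRNP-H and B5 read 444 and 435 and were hardly apart. Neither gene moved beyond what the spread between the arrays allows to be called.

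The plasma cell regulators overlapped between clones and controls. Prdm1 differed by -0.23 (SE 0.39, 95% interval -1.11 to 0.65), Irf4 by -0.21 (SE 0.35, -1.0 to 0.58) and Xbp1 by 0.39 (SE 0.39, -0.50 to 1.27). These intervals include 0 and also include changes of more than 1.5-fold, so the arrays do not show that the levels were alike. The signs of all 3 turned when single arrays were left out. Bcl6 differed by 0.48 (SE 0.67), Ebf1 by 0.07 (SE 0.60), Spib 93657_at by 0.06 (SE 0.41), Spib 93388_s_at by 0.55 (SE 0.64) and Pou2af1 162439_at by 0.08 (SE 0.66), each with overlap between clones and controls.

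**Figure D3:**
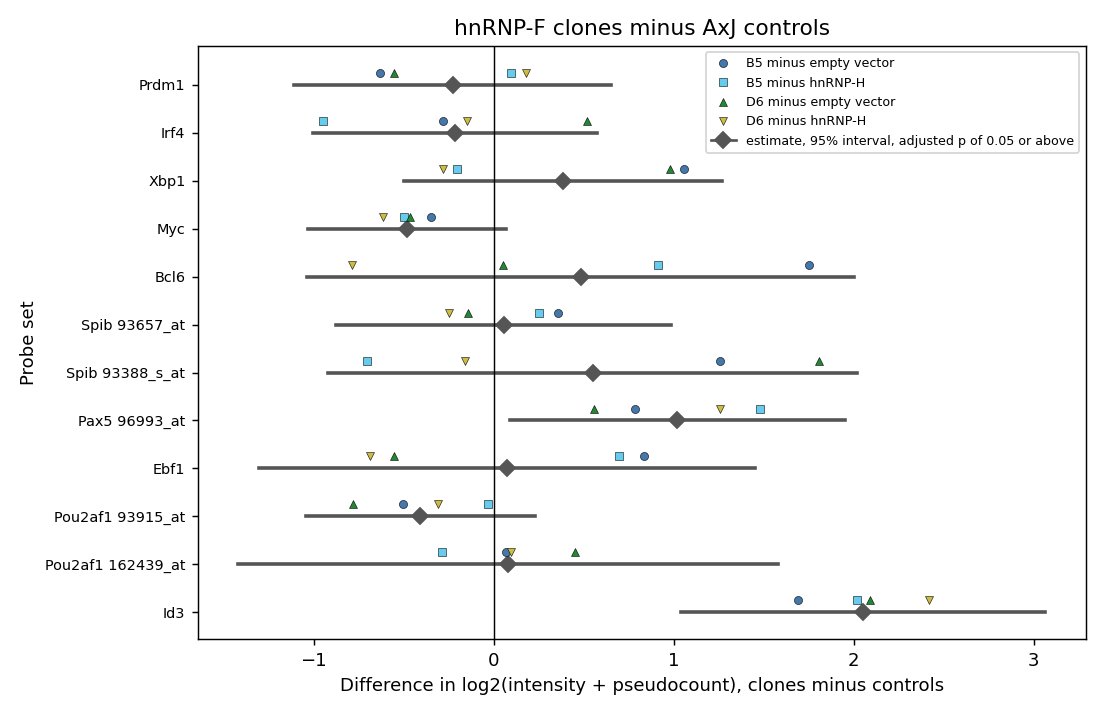
Difference in log2(intensity + 6.55) for clones B5 and D6 minus the 2 AxJ controls, for the 12 probe sets tested (diamonds, with 95% intervals), and the 4 differences of a clone from a control (small symbols). Id3 and Pax5 96993_at have all 4 differences above 0, Myc and Pou2af1 93915_at all 4 below 0, and no probe set passed the test.

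The remaining contrasts have 1 array a side and no test. Between hnRNP-H and empty vector, Xbp1 (1.26) and Spib 93388_s_at (1.96) were at least 2-fold apart on the log2 scale with its pseudocount, that is 2 of the 12, where 18.1% of all probe sets were. Between the clones, Bcl6 (-1.70) and Ebf1 (-1.38) were at least 2-fold lower in D6 than in B5, again 2 of the 12, against 12.0% of all probe sets. Both of these lay under the filter in both clones. B5 was the highest AxJ array for Bcl6, Ebf1, Spib 93657_at and Pax5 96993_at, and D6 the lowest AxJ array for Myc, Ebf1, Spib 93657_at and Pou2af1 93915_at.

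The genes with the most similar profiles were sought by the Euclidean distance between centred log2 values over the 5 arrays, a description in which the A20 value carries most of the weight. Prdm1 was closest to Tom1l1 (distance 0.35) and Sfmbt2 (0.36), which read 3.94 and 12.2 in A20. Irf4 was closest to Icam1 (0.07) and to Pdia6 (0.29), a folding enzyme of the endoplasmic reticulum, and Xbp1 to Icam2 (0.19) and Commd4 (0.22). Myc was closest to Hsp90b1 (0.27), a chaperone of the endoplasmic reticulum, which read 6222 to 9547 in AxJ and 1047 in A20, and then to Ifi27 (0.33).

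Among the B cell regulators, Spib was closest to the MHC class II gene H2-Aa (0.42), at 4.18 to 7.48 in AxJ and 894 in A20, and to Clca1 (0.56). Bcl6 was closest to Prkcb (0.67), a kinase of B cell receptor signalling, and Scd1 (0.71), and Ebf1 to Ablim1 (0.60) and Tnfsf9 (0.72). Pax5 had Dbnl (0.53) and Fars2 (0.63), Pou2af1 had Nat2 (0.12) and Macf1 (0.19), and Id3 had Tfeb (0.93) and Il3ra (1.03) as nearest genes, with the Id3 neighbours the most distant.

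Lists of partners and known targets were then read in the A20 comparison, each gene by its brightest probe set. Nfatc1, Id2, Cd72, Vpreb3 and Cd22 lay under the filter on every AxJ array and were tested through A20 alone. For these genes a difference was built into the filter, and its size depends in part on the pseudocount. Over all 9108 probe sets the median difference was -0.04, with 2.89% past the threshold above 0 and 3.0% below 0. Among 18 tested transcription factors of the B and plasma lineages other than the regulators, 4 rose and 0 fell (median 0.79). These were Nfatc1 (3.75, limma adjusted p = 0.0236), Irf8 (2.85, 0.0170), Myb (2.82, 0.0109) and Mef2b (2.59, 0.0100), and the Irf8 call was lost without empty vector (adjusted p = 0.0539). Spi1, the ETS factor PU.1, differed by 0.33 and Pou2f2, the octamer factor Oct-2, by -0.08, and neither passed.

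Of 5 E proteins and Id proteins, Id2 rose by 4.52 (SE 0.70, limma adjusted p = 0.00855), and the call held without any 1 AxJ array. The other 4 did not pass, with Tcf3 at 0.20, Tcf4 at 1.02, Tcf12 at -0.25 and Id4 at 0.73. Both Id genes with a call, Id3 and Id2, were thus higher in A20. Id2 read 1.75 to 9.47 in AxJ, under the filter, and 218 in A20, so its difference was built into the filter.

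Of 12 genes that Pax5 or Ebf1 are known to activate, 3 rose and 1 fell (median 1.76). Blk, a kinase of the B cell receptor, rose by 4.10 (limma adjusted p = 0.00158) and Cd72, tested through A20 alone, by 3.87 (0.0304). The third was Irf8, given above. Igll1, the surrogate light chain gene, fell by 2.73 (0.0130), and a second Igll1 probe set differed by -0.51. The Cd72 call was lost without empty vector (adjusted p = 0.0605), hnRNP-H (0.0506) or B5 (0.0531), and the Igll1 call without empty vector (0.0605). Cd40 (3.10), Cd79a (2.80) and Vpreb3 (2.61) missed the threshold, with adjusted p from 0.0568 to 0.0795. Of 8 genes that Pax5 is known to repress, 2 fell and 1 rose (median 0.44). Cd28 fell by 2.84 (adjusted p = 0.0384) and Jchain by 1.61 (0.0130), and Flt3 rose by 2.32 (0.00635) although its other probe set differed by -0.54. The Cd28 call was lost without any 1 AxJ array, with adjusted p from 0.0602 to 0.131, and the Jchain call without B5 (0.0602) or D6 (0.0514).

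Of 11 further genes that Blimp-1 is known to repress, 2 rose and 0 fell (median 1.19). They were Cd22, at 4.77 (limma adjusted p = 0.00358), and Blk, which the Pax5 list also holds. Cd22, and Id2 in the list that follows, were tested through A20 alone. Ciita, the class II transactivator, differed by -0.17 (SE 0.47) and did not pass. Of 8 genes that Bcl6 is known to repress, Id2 rose and Cd44 fell, by 2.58 (adjusted p = 0.0414, lost without any 1 AxJ array, 0.0654 to 0.109), and the median was 0.02.

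Of 11 genes that Xbp1 is known to activate, 3 fell, 0 rose and the median was -1.39. Sel1l fell by 3.38 (limma adjusted p = 0.00216), Hspa5, the gene of the chaperone BiP, fell by 2.26 (0.00312) and Ssr1 fell by 1.87 (0.0173), the last without a call when B5 (0.0671) or D6 (0.0621) was left out. All 11 lay below 0, where the median of all probe sets was -0.04. Xbp1 itself, as given above, did not pass in the same comparison. The count of 3 changed with the settings, to 1 without the intensity trend and 5 against all 4 AxJ arrays as 1 group. It was higher still against hnRNP-H and D6 alone.

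Of 13 genes that Myc is known to activate, 1 fell and 0 rose (median 0.30), while Myc fell by 3.01. The one that fell was Tfrc, the transferrin receptor gene, by 1.69 (limma adjusted p = 0.0259), and that call was lost without empty vector (0.0709), B5 (0.0838) or D6 (0.0779). The other 12 ran from -1.79 (Ccnd2) to 0.80 (Cad), none past the threshold. In the Myc and Max network, Mxd3 rose by 2.30 (adjusted p = 0.0455) and Mxd4 fell by 2.43 (0.0258) among 8 tested. Both of these calls were lost without B5 (0.115 and 0.0722) or D6 (0.0978 and 0.0641), and that of Mxd3 without empty vector (0.0891). None of the genes in these 9 lists passed the limma threshold in the hnRNP-F clones, where the list medians lay between -0.11 and 0.29.

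**Figure D4:**
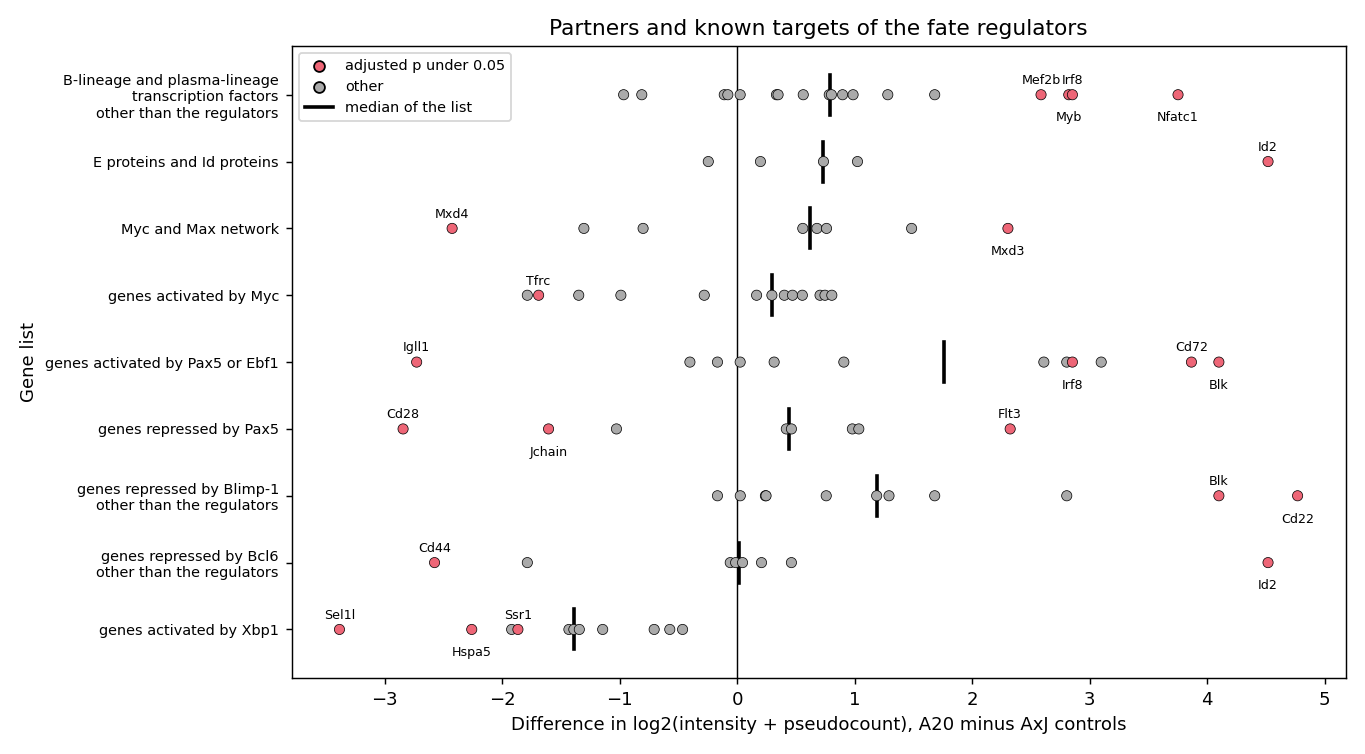
Difference in log2(intensity + 6.55) between A20 and the AxJ controls for each tested gene of 9 lists of partners and known targets, with the list median as a bar and genes past the threshold in red with their names. The list of genes activated by Xbp1 lies below 0, and Igll1, Cd28, Jchain, Cd44, Mxd4 and Tfrc are the genes past the threshold below 0 in the other lists.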

How the data were processed

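Each of the 5 arrays has 1 deposited linear intensity per probe set. In these values the mean of every array, after trimming 2 percent at either end, is near 150, and no source states the step that set this level. Scanner software and background handling are not named by any source used here. Symbols came from the array annotation, updated through gene identifiers: of 12488 probe sets 10855 carried 1 symbol, 396 several and 1237 none, and 66 control probe sets were not tested. Values were quantile normalised, raised by 6.55 (their 20th percentile) and put on a log2 scale, and 9108 probe sets peaking above 21.8 (40th percentile) were tested. The model, limma 3.58.1 under R 4.3.3 with a trend on intensity, held 3 means (AxJ controls, hnRNP-F clones, A20) and left 2 residual degrees of freedom. It was tested on simulated data. No pair of arrays was identical, and their number limits the precision. Text names were set as the members, their 2 nearest genes and, for each list, up to 4 genes past the threshold or else the 2 of largest statistic. A few further list genes were named after their values were seen. The members, lists and tests were chosen with earlier results of these data known. Alternatives covered the pseudocount, filter, scaling, trend, grouping, probe sets per gene and arrays left out, and the 3 that use pairs of AxJ arrays of like Gapdh ratio were added after seeing the data.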

Additional observations from a re-analysis of the deposited data

How the results depend on the processing

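In the A20 comparison 8 member probe sets and 536 of all probe sets passed, and the members' signs held in every alternative run. Without the filter on low values 4 members and 309 probe sets passed, without the intensity trend 5 and 146, against empty vector and B5 alone 5 and 248, and against hnRNP-H and D6 alone 9 and 1665. Leaving out single AxJ arrays gave 6 to 7 members and 242 to 614 probe sets. Myc and Prdm1 passed in each of the 15 alternatives. Bcl6 and Spib 93657_at did so too, but like Ebf1 they were tested through A20 alone, so their direction was built into the filter. Irf4 was lost in 8, Id3 in 6, Ebf1 in 5 and Pax5 in 3. Median scaling moved the median of all probe sets to 0.06 and the deposited scaling to -0.14, and Irf4 was lost under the former (adjusted p = 0.0765). It also moved the split of calls to 358 higher and 190 lower, from 263 and 273. Among the lists, it and the deposited scaling gave 5 and 4 genes past the threshold in the Blimp-1 list instead of 2, and 5 each higher in the Pax5 and Ebf1 list instead of 3, while the Tfrc call ended under median scaling. In the clone comparison no member passed in any alternative, and over all probe sets 0 passed without the filter, 0 without the trend and 0 to 3 with single arrays left out. Leaving out single arrays turned signs there, with ranges of -0.59 to 0.14 for Prdm1, -0.62 to 0.19 for Irf4, -0.24 to 1.02 for Xbp1, -0.37 to 1.33 for Bcl6, -0.43 to 1.53 for Spib 93388_s_at, -0.20 to 0.31 for Spib 93657_at, -0.11 to 0.27 for Pou2af1 162439_at and -0.62 to 0.76 for Ebf1. Fewer arrays in each such fit are part of its construction, and other causes were not tested. No paired analysis was possible because the labels give the groups no shared replicate numbers, and the block of AxJ pairs in the clone comparison rests on a measured Gapdh ratio and not on the labels. Levels under the filter limit what the dim probe sets of Bcl6, Ebf1, Spib and Pou2af1 can show in AxJ.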
